A study of Mus musculus with 4 samples.

Results

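The glucose dependence of the imeglimin ratio was measured gene by gene in the insulin cells of cultured mouse islets. The quantity, called the interaction here, was log2 of imeglimin over vehicle at 11.1 mM glucose minus log2 of imeglimin over vehicle at 3.9 mM glucose. A positive interaction means that the imeglimin-to-vehicle ratio was greater at 11.1 mM than at 3.9 mM, whichever way either ratio pointed, and an interaction of 1 means a 2-fold difference between the ratios. The 4 libraries were imeglimin at 11.1 mM glucose, vehicle at 11.1 mM glucose, imeglimin at 3.9 mM glucose and vehicle at 3.9 mM glucose, with 1 library per condition. All islets came from wild-type C57BL6J mice, male and 8 weeks old, and were cultured for 24 h. The drug was given at 1 mM and the vehicle was DMSO. The islets were then dispersed with Accutase and single cells were captured for 10x Genomics 3' sequencing of polyadenylated RNA. The labels do not say how many mice or culture dishes stand behind a library. With 1 library per condition no interaction could be tested, so the values below describe these 4 libraries, and an effect of treatment or glucose cannot be told apart from a difference between single preparations.

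Imeglimin is an oral glucose-lowering drug of the glimin class that acts on mitochondria and raises glucose-stimulated insulin secretion. Beta cells take up glucose through GLUT2, phosphorylate it with glucokinase, and couple its oxidation to closure of ATP-sensitive potassium channels, calcium entry and exocytosis of insulin granules. Because they make so much secretory protein they rely on the unfolded protein response and on the integrated stress response, in which phosphorylation of eIF2alpha favours translation of the transcription factor ATF4 and expression of its target genes. Glucose supply bears on both sides, since it drives insulin gene expression and its shortage is itself a stress.

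Barcodes were kept with at least 1000 unique molecular identifiers (UMIs, each standing for 1 captured RNA molecule), at least 500 genes and at most 20% mitochondrially encoded UMIs, which left 31792 cells. Insulin cells had at least 4% of their UMIs from Ins1 and Ins2, under 2% from Gcg, and under 1% from each of Sst and Ppy. They numbered 20279 of 31792 kept cells: 5704 in the imeglimin library and 5197 in the vehicle library at 11.1 mM, and 4853 in the imeglimin library and 4525 in the vehicle library at 3.9 mM. Their summed UMIs were 81275889 (imeglimin) and 77910601 (vehicle) at 11.1 mM, and 52053603 (imeglimin) and 62541822 (vehicle) at 3.9 mM. All 8 of 8 beta-cell markers were detected in every library, but Ins1 and Ins2, which chose the cells, are among them. Every marker of alpha, delta, PP, acinar, duct, endothelial and macrophage cells was detected in every library as well. Detection in sums of this size therefore does not show what the cells are. Of the distinct insulin-cell barcodes, 45 of 20234 occurred in more than 1 library.

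The insulin limit cut the libraries unequally, and 1 library stood apart. Just inside the limit, at 4 to 5% insulin UMIs, lay 11 imeglimin and 2 vehicle cells at 11.1 mM, against 394 imeglimin and 357 vehicle cells at 3.9 mM. Just outside it, at 3 to 4%, lay 9 imeglimin and 11 vehicle cells at 11.1 mM, and 379 imeglimin and 272 vehicle cells at 3.9 mM. The imeglimin library at 3.9 mM had the fewest UMIs per insulin cell, with a median of 9552 against 12270 to 13010 in the others. It also carried more acinar RNA. The summed level of 7 of 7 acinar markers was 490 CPM (counts scaled to a library of 1e+06 UMIs) in it, against 25.6 to 46.9 CPM in the other libraries. No acinar marker was at 0 in any library. The summed level of 3 duct markers was instead 273 CPM (imeglimin) and 338 CPM (vehicle) at 11.1 mM. At 3.9 mM it was 46.6 CPM (imeglimin) and 19.8 CPM (vehicle). The lowest interactions of all were those of acinar genes, chymotrypsinogen Ctrb1 at -4.97 and trypsinogen Try4 at -4.55, which were up to 175 times (Ctrb1) and 182 times (Try4) higher in other cells of the same libraries. The part of exocrine RNA, depth and the insulin limit in the remaining interactions was not tested beyond the values given here.

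Compared were 5519 genes with a mean of at least 20 CPM over the 4 libraries, of 32285 in the files. Over these genes the interaction was narrow, around a centre near 0 that follows from TMM scaling and is not a result. Its median was -0.00, its SD over genes 0.53, its quartiles -0.29 and 0.32, and 71.5% of genes lay within 0.5 of 0. At least 2-fold higher interactions were held by 184 genes (3.33% of those compared) and at least 2-fold lower ones by 102 genes (1.85%). Of these, 2 of the higher genes and 15 of the lower ones were over 10 times higher in another group of cells of a library, and the part of free RNA from those cells was not tested. At 1.5-fold the counts were 716 (13.0%) higher and 501 (9.08%) lower. A 2-fold limit serves as a measure of size only. The 95% counting intervals, which cover the sampling of UMIs and no difference between preparations, had a median width of 0.21. These counts rest on TMM scaling. Plain CPM, in which the insulin mRNAs take part of every other gene's share, shifted the median by 0.32 and gave 525 higher and 45 lower genes, so that 92.1% of the 2-fold genes were higher, against 64.3% with TMM.

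**Figure D1:**
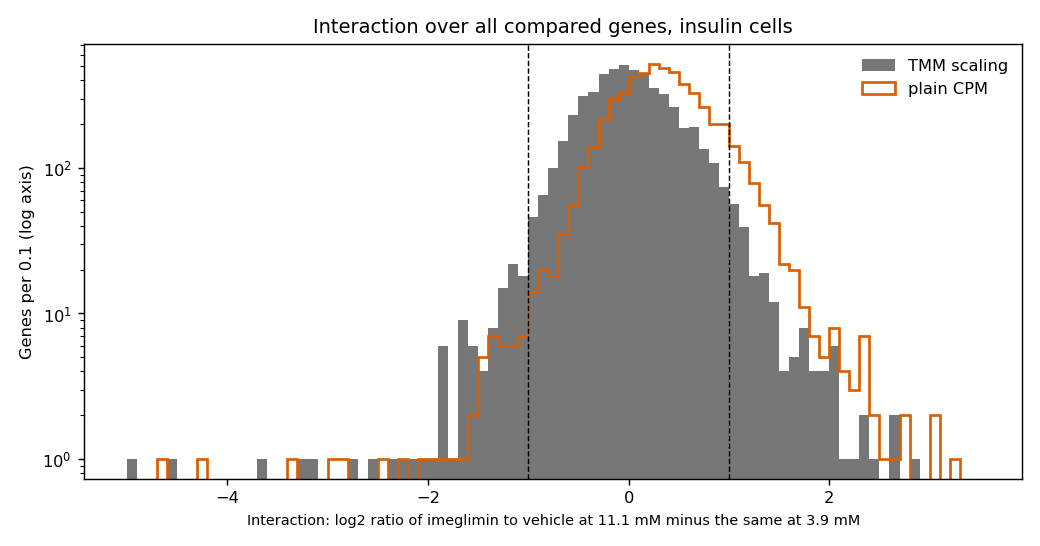
Number of genes (log axis, per 0.1 bin) by interaction in insulin cells, over 5519 compared genes; filled bars use TMM scaling and the orange outline plain CPM, and dashed lines mark a 2-fold difference between the ratios. With TMM the median is -0.00, with 184 genes above the upper line and 102 below the lower one, while plain CPM shifts the whole distribution by 0.32.

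The imeglimin library at 3.9 mM was the extreme one for most genes with a large interaction. Of the 184 higher genes, 132 (71.7%) had their lowest level in imeglimin at 3.9 mM, against 28.2% of all compared genes. Another 49 (26.6%) were lowest in vehicle at 11.1 mM, against 37.3% of all compared genes. Of the 102 lower genes, 78 (76.5%) had their highest level in imeglimin at 3.9 mM, against 42.5% of all compared genes. The higher genes most often peaked in vehicle at 3.9 mM (94 genes, 51.1%) or in imeglimin at 11.1 mM (69 genes, 37.5%). The shares over all compared genes were 18.0% and 20.8%. By its definition a large interaction favours such extremes, so these differences from all genes follow in part from how the genes were picked.

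In 31 genes the imeglimin-to-vehicle ratio lay on opposite sides of 1 at the glucose levels, by at least 1.5-fold each. In 25 of them (0.453% of compared genes) imeglimin was above vehicle at 11.1 mM and below it at 3.9 mM. In 6 (0.109%) the order was the other way round: Txnip, Junb, Slitrk6, Elf3, Akr1c13 and Cldn4. The highest interactions were headed by genes of the first kind. Cyb5r1 (chr1:134405559-134411740, plus strand, in GENCODE vM21 on GRCm38), which encodes a cytochrome b5 reductase, was detected at 49.6 CPM (imeglimin) and 18.9 CPM (vehicle) at 11.1 mM, and at 27.3 CPM (imeglimin) and 77.1 CPM (vehicle) at 3.9 mM. Its interaction of 2.89 (counting interval 2.77 to 3.02) was the largest positive one among the 5519 genes. Nupr1, a small chromatin-associated stress protein and an ATF4 target, followed at much higher levels. It had 1114 CPM (imeglimin) and 314 CPM (vehicle) at 11.1 mM, and 1025 CPM (imeglimin) and 1868 CPM (vehicle) at 3.9 mM. The imeglimin libraries were thus within a narrow range and the vehicle libraries were the extremes at both ends, with an interaction of 2.69 (2.67 to 2.72).

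Chchd10, a protein of the mitochondrial intermembrane space, showed the same order of libraries. It was at 499.8 CPM (imeglimin) and 221 CPM (vehicle) at 11.1 mM, and at 378 CPM (imeglimin) and 689 CPM (vehicle) at 3.9 mM, an interaction of 2.04. The insulin-like growth factor receptor gene Igf1r had its highest level in imeglimin at 11.1 mM (793 CPM), against 373 CPM in vehicle at 11.1 mM. At 3.9 mM it was at 139.7 CPM with imeglimin and 286 CPM with vehicle, and its interaction was 2.12. Tenm4, a teneurin of the cell surface, was at 62.1 CPM (imeglimin) and 22.2 CPM (vehicle) at 11.1 mM, and at 32.9 CPM (imeglimin) and 61.6 CPM (vehicle) at 3.9 mM. Its interaction of 2.39 placed it beside Fam129a, a stress-linked gene also known as Niban, at 2.31. The remaining genes of this kind with the largest interactions were Naaa, a lysosomal amide hydrolase (2.09), Hap1, the huntingtin-associated protein (2.07), Tmem97, known as the sigma-2 receptor (1.99), and Ldha, described with glycolysis.

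**Figure D2:**
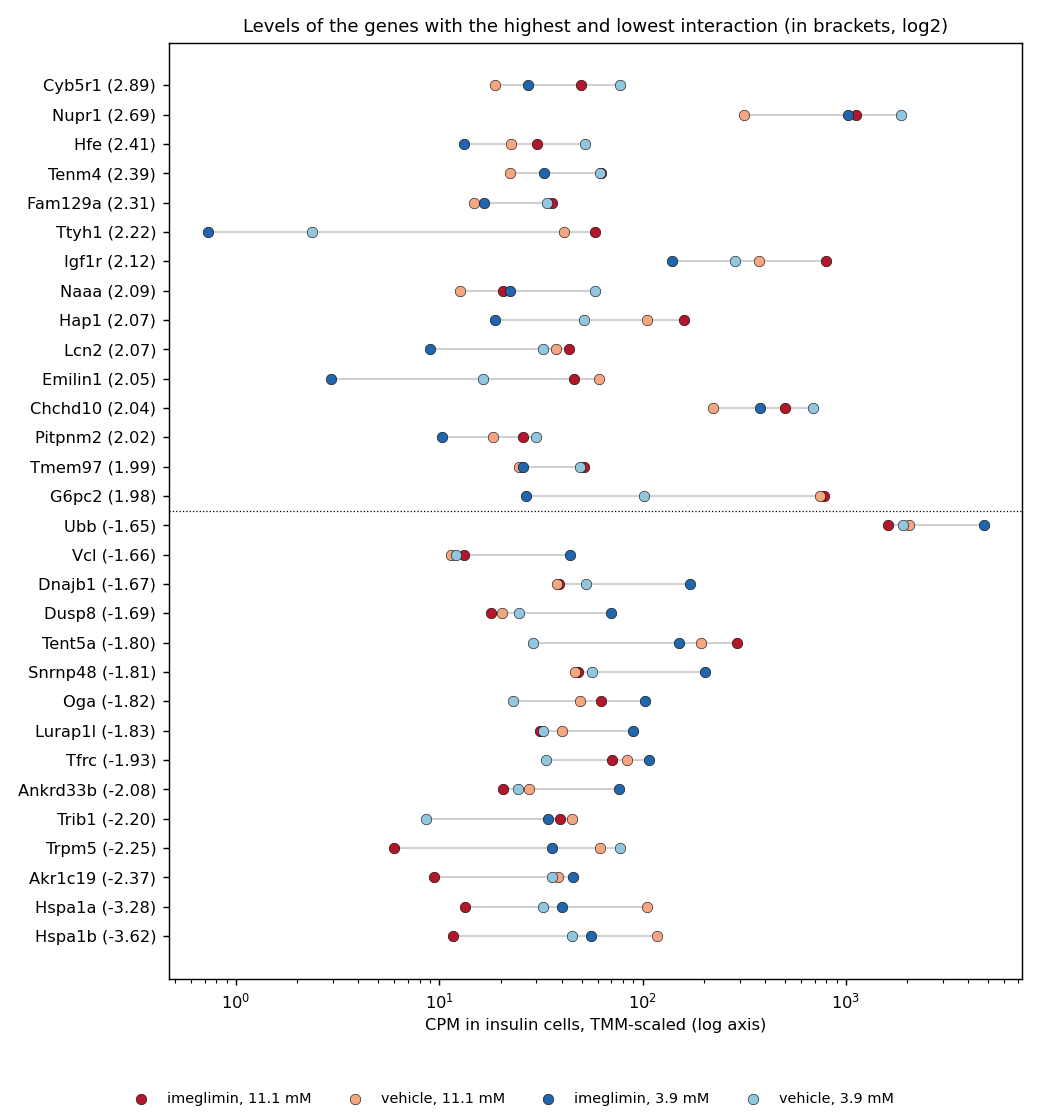
TMM-scaled CPM in insulin cells (log axis) in each library, for the 15 highest and the 15 lowest interactions that met the naming rule, with the interaction in brackets. Dark red and orange points are imeglimin and vehicle at 11.1 mM, dark and light blue points imeglimin and vehicle at 3.9 mM; among the upper 15, Nupr1 and Cyb5r1 have both vehicle libraries at the ends, and among the lower 15, Ubb and Snrnp48 have imeglimin at 3.9 mM alone at the high end.

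For several other genes with a high interaction, imeglimin at 3.9 mM had the lowest of the 4 levels. G6pc2, the islet glucose-6-phosphatase catalytic subunit that opposes glucokinase, was at 776 CPM (imeglimin) and 744 CPM (vehicle) at 11.1 mM, and at 26.8 CPM (imeglimin) and 101 CPM (vehicle) at 3.9 mM. Its interaction of 1.98 came with nearly equal levels at 11.1 mM. Emilin1, an extracellular matrix glycoprotein, was at 45.7 CPM (imeglimin) and 61.3 CPM (vehicle) at 11.1 mM, and at 2.94 CPM (imeglimin) and 16.4 CPM (vehicle) at 3.9 mM, with an interaction of 2.05. Hfe, the haemochromatosis protein that acts on iron uptake, had an interaction of 2.41 and its lowest level, 13.1 CPM, in imeglimin at 3.9 mM. The transferrin receptor gene Tfrc went the other way, at 70.3 CPM (imeglimin) and 83.4 CPM (vehicle) at 11.1 mM, and at 107 CPM (imeglimin) and 33.5 CPM (vehicle) at 3.9 mM. Its interaction was -1.93, so that these genes of iron uptake had interactions of opposite sign. The values for Lcn2, a secreted siderophore-binding protein at 2.07, rested on few cells: the 1% of insulin cells with the most Lcn2 held 74.4% (imeglimin) and 87.2% (vehicle) of its UMIs at 11.1 mM, and 99.3% (imeglimin) and 82.5% (vehicle) at 3.9 mM. Ttyh1 (2.22), which encodes a chloride channel-like membrane protein, was nearly absent at 3.9 mM, at 0.72 CPM (imeglimin) and 2.36 CPM (vehicle). At 11.1 mM it was at 58.5 CPM (imeglimin) and 41.0 CPM (vehicle). The Ttyh1 levels at 3.9 mM rested on 37 UMIs with imeglimin and 182 UMIs with vehicle, and its counting interval was wide (1.70 to 2.73).

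The integrated stress response list held 33 compared genes, with a median interaction of 0.30. Of these, 7 were at least 2-fold higher and 0 were 2-fold lower, against 3.33% and 1.85% of all compared genes. The same shares are to be set beside the 2-fold counts of every list below. Above the median of all genes lay 25 of the 33. In 25 of the 33 the lowest of the 4 levels was in vehicle at 11.1 mM, against 37.3% of all compared genes. The genes at the top were the pseudokinase Trib3, the mitochondrial folate enzyme Aldh1l2, the transcription factor Atf5, the lipoprotein receptor Vldlr, the nutrient sensor Sesn2 and the tryptophanyl-tRNA synthetase Wars, beside Nupr1. Trib3 was at 77.1 CPM (imeglimin) and 26.1 CPM (vehicle) at 11.1 mM, and at 117 CPM (imeglimin) and 121 CPM (vehicle) at 3.9 mM. Only vehicle at 11.1 mM was low, with an interaction of 1.62 (1.53 to 1.71). Aldh1l2 had an interaction of 1.78, Vldlr of 1.32, Atf5 of 1.30, Sesn2 of 1.23 and Wars of 1.13. Ddit3, which encodes the stress transcription factor CHOP, was at 383 CPM (imeglimin) and 125 CPM (vehicle) at 11.1 mM, and at 1767 CPM (imeglimin) and 1119 CPM (vehicle) at 3.9 mM. Imeglimin was above vehicle at both glucose levels, and the interaction of 0.96 was just under 2-fold. Atf4 mRNA itself had an interaction of 0.41. At the other end stood the cysteinyl-tRNA synthetase Cars (-0.93), the amino acid transporter Slc38a2 (-0.85), the secreted stress cytokine Gdf15 (-0.81, at a level up to 12.4 times higher in other cells of a library), and the serine and asparagine synthesis genes Phgdh (-0.62) and Asns (-0.54).

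The promoters of Nupr1, Trib3 and Chchd10, the last of which is not on this list, are shown because each holds the core of the composite element bound by ATF4 with C/EBP proteins. They run from 250 bases before to 50 after the start site, in RefSeq on GRCm38.p6, read on the gene's own strand, with matches to TGATGNAA or its reverse complement in capitals. Nupr1 (chr7:126625421-126625720, minus strand) has a match that begins 110 bases before the start site. Trib3 (chr2:152344011-152344310, minus strand) has a match 14 bases after it. Chchd10 (chr10:75932880-75933179, plus strand) has 2 matches, at 85 and 72 bases before it.
Nupr1: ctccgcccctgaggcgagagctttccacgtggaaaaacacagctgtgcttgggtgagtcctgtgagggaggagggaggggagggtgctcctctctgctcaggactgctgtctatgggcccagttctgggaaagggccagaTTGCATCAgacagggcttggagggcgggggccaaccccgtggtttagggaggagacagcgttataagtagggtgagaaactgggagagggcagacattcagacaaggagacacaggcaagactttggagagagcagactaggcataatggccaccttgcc
Trib3: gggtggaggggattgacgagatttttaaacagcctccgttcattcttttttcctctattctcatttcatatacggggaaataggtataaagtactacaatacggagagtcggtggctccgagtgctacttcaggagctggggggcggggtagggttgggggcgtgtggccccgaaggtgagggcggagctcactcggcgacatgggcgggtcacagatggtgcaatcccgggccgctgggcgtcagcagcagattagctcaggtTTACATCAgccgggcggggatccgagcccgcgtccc
Chchd10: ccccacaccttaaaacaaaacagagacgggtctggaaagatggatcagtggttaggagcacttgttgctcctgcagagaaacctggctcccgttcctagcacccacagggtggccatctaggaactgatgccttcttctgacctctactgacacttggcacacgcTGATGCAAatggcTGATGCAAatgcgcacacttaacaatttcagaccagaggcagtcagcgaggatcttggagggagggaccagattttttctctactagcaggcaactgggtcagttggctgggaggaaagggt
The motif was found in 3.97% of all 32851 promoters. The other shares are of genes, each counted once if any of its promoters held a match, and so are not a like measure. Of the 5519 compared genes, 4476 had a promoter to search, and 2.68% of these held the motif. On the integrated stress response list 9 of 27 such genes (33.3%) held it. It did not follow the sign of the interaction: 9 of 140 searched genes with a 2-fold higher interaction (6.43%) and 7 of 83 with a 2-fold lower one (8.43%) had a match. A match describes the letters in this window and shows no binding.

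The unfolded protein response and endoplasmic reticulum folding list had a median of 0.31 over 32 genes, with 2 genes 2-fold higher and 0 lower. The higher ones were Ero1l, an oxidase of disulfide bond formation that is also induced by hypoxia (1.36), and Ern1, which encodes the stress sensor IRE1alpha (1.27). Hspa5, the main chaperone of the endoplasmic reticulum, was at 1796 CPM (imeglimin) and 1121 CPM (vehicle) at 11.1 mM, and at 2121 CPM (imeglimin) and 1891 CPM (vehicle) at 3.9 mM. Its interaction was 0.51. Aminoacyl-tRNA synthetases had a median of 0.19 over 17 genes, with Wars and the valyl-tRNA synthetase Vars (1.02) the only members at least 2-fold higher and none lower. This list overlapped with the integrated stress response list, which also held Aars, Cars, Eprs, Gars, Iars, Nars, Sars, Tars and Wars, so the medians are not separate observations. Mitochondrial chaperones and proteases had a median of 0.16 over 15 genes. The members past 2-fold were Atf5, which drives the mitochondrial unfolded protein response, and the matrix protease Lonp1 (1.18). Lonp1 was lowest in vehicle at 11.1 mM, at 42.8 CPM, against 79.4 CPM in imeglimin at 11.1 mM, 82.4 CPM in imeglimin at 3.9 mM and 101 CPM in vehicle at 3.9 mM.

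Metallothioneins bind zinc, which beta cells store with insulin. Mt1 was at 9477 CPM (imeglimin) and 2453 CPM (vehicle) at 11.1 mM, and at 17112 CPM (imeglimin) and 9869.8 CPM (vehicle) at 3.9 mM. Imeglimin was above vehicle at both glucose levels, by more at 11.1 mM, with an interaction of 1.16. Mt2 had an interaction of 0.72 and the same order of libraries, and the 9 compared genes of metallothioneins and zinc transport had a median of 0.18. Gsto1, a glutathione transferase of the NRF2 and glutathione list, was at 48.8 CPM (imeglimin) and 18.4 CPM (vehicle) at 11.1 mM, and at 59.98 CPM (imeglimin) and 83.7 CPM (vehicle) at 3.9 mM, an interaction of 1.89. Hmox1, the haem-degrading enzyme, had its highest level in vehicle at 11.1 mM (278 CPM), against 103 CPM in imeglimin at 11.1 mM. At 3.9 mM it was at 77.8 CPM with imeglimin and 91.7 CPM with vehicle, and its interaction was -1.20. The median of that list, -0.07 over 21 genes, was close to that of all genes.

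**Figure D3:**
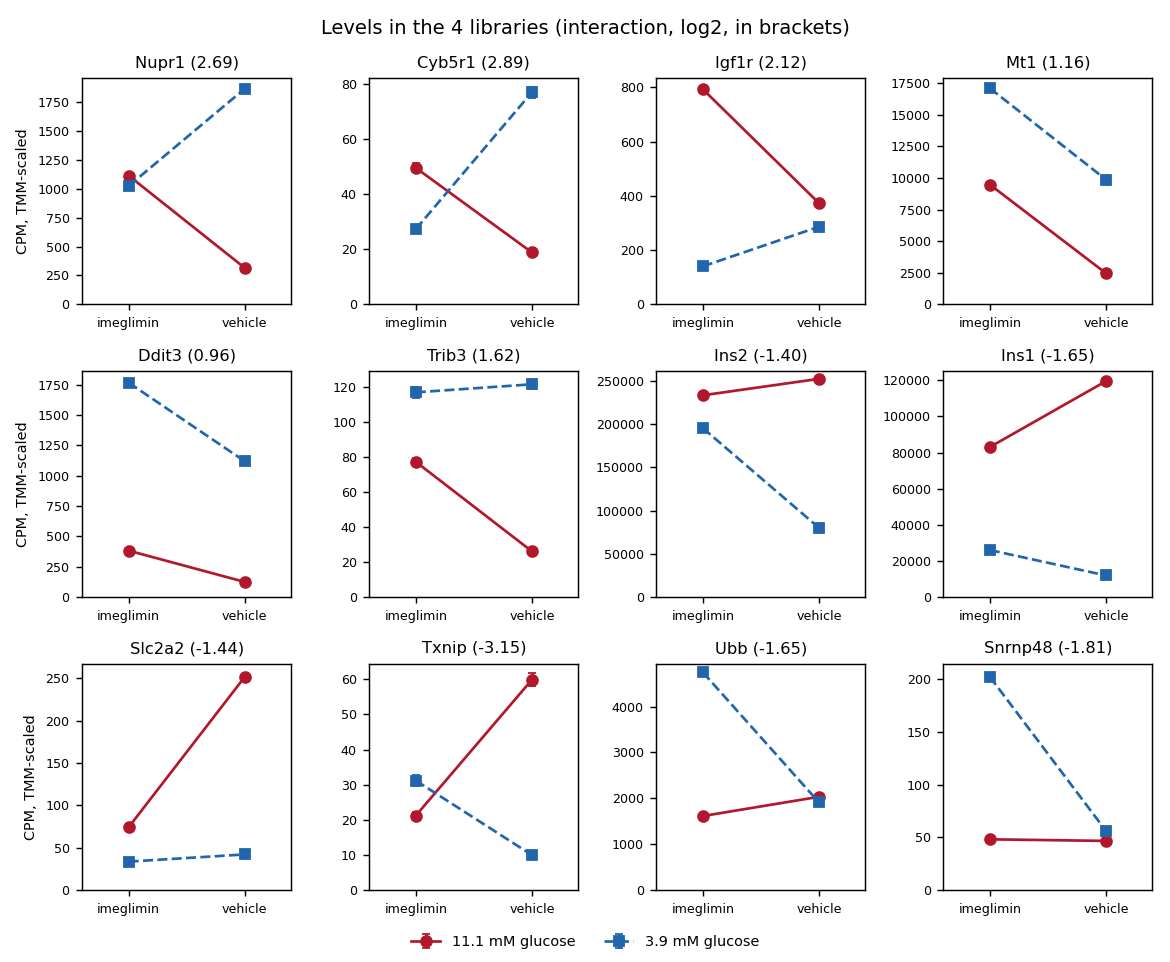
TMM-scaled CPM in insulin cells of 12 genes (linear axis from 0, a scale for each gene) with imeglimin on the left and vehicle on the right of each panel; red circles are 11.1 mM and blue squares 3.9 mM glucose, and bars are 95% counting intervals, mostly smaller than the points. Lines cross for Nupr1, Cyb5r1 and Txnip, stay apart for Mt1, Ddit3 and Ins2, and the 3.9 mM imeglimin point stands alone for Snrnp48 and Ubb.

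The insulin genes had interactions well below 0, and amylin did not. Ins2 was at 233545 CPM (imeglimin) and 252601 CPM (vehicle) at 11.1 mM, and at 195628 CPM (imeglimin) and 80188 CPM (vehicle) at 3.9 mM. The vehicle library at 3.9 mM was the low one, and the interaction was -1.40. Ins1 was at 83058 CPM (imeglimin) and 119534 CPM (vehicle) at 11.1 mM, and at 26047 CPM (imeglimin) and 11974 CPM (vehicle) at 3.9 mM, an interaction of -1.65. Iapp, which encodes amylin, was at 102789 CPM (imeglimin) and 103336 CPM (vehicle) at 11.1 mM, and at 53429 CPM (imeglimin) and 52225 CPM (vehicle) at 3.9 mM, so that its interaction was -0.04. Insulin UMIs chose the cells, so the insulin values are a description. With cells chosen by Iapp instead, at 1% of UMIs or more, a choice made after the data were seen, the interactions were -1.52 for Ins1 and -1.27 for Ins2.

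Beta-cell identity genes were spread on both sides of 0, with a median of -0.04 over 29 genes, 2 genes 2-fold higher and 3 lower. Slc2a2, which encodes GLUT2, was at 74.2 CPM (imeglimin) and 252 CPM (vehicle) at 11.1 mM, and at 33.5 CPM (imeglimin) and 41.9 CPM (vehicle) at 3.9 mM. Vehicle at 11.1 mM was the only high library, and the interaction was -1.44. Trpm5, a calcium-activated cation channel, was at 5.99 CPM (imeglimin) and 61.5 CPM (vehicle) at 11.1 mM, and at 35.8 CPM (imeglimin) and 77.0 CPM (vehicle) at 3.9 mM. Imeglimin was below vehicle at both glucose levels, and more so at 11.1 mM, with an interaction of -2.25. Nkx6-1, a homeobox gene that mature beta cells need, was at 330.4 CPM (imeglimin) and 326 CPM (vehicle) at 11.1 mM, and at 362 CPM (imeglimin) and 149.7 CPM (vehicle) at 3.9 mM. Its interaction of -1.25 came from vehicle at 3.9 mM as the 1 low library. Mafa, a glucose-responsive activator of insulin transcription, stood in contrast at 0.04 (-0.03 to 0.11), with 301 CPM (imeglimin) and 522 CPM (vehicle) at 11.1 mM and 45.1 CPM (imeglimin) and 80.2 CPM (vehicle) at 3.9 mM. Imeglimin was below vehicle by a like factor at both glucose levels. Pdx1 was near 0 as well (-0.07). The GLP-1 receptor gene Glp1r was at 169.7 CPM (imeglimin) and 463 CPM (vehicle) at 11.1 mM, and at 67.9 CPM (imeglimin) and 308 CPM (vehicle) at 3.9 mM, an interaction of 0.74.

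Genes of granules and exocytosis had a median of 0.23 over 26 genes, with the granule protein Sv2a the only 2-fold member (1.84). It was at 98.2 CPM (imeglimin) and 97.7 CPM (vehicle) at 11.1 mM, and at 18.5 CPM (imeglimin) and 65.9 CPM (vehicle) at 3.9 mM, low only in imeglimin at 3.9 mM. The members lay on both sides of 0, between the chromogranin gene Chga (-0.89) and Sv2a, with Cplx2, a regulator of vesicle fusion, next to the top (0.91). Vgf, a precursor of secreted peptides, had an interaction of 0.38. Calcium and channel genes had a median of 0.57 over 19 members. The calcium pump gene Atp2a2 (1.15) and Kcnj11, the pore of the ATP-sensitive potassium channel (1.03), were past 2-fold upward and Trpm5 downward. Abcc8, its partner subunit, was at 0.67.

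Glucose sensing and glycolysis had the highest median of the 30 lists, 0.75 over 16 genes, with 5 genes at least 2-fold higher and 1 lower. In 13 of the 16 the lowest level was in imeglimin at 3.9 mM, against 28.2% of all compared genes. The lower gene was Slc2a2, at the entry of the pathway. Among the enzymes, Aldoa, the aldolase, was at 901 CPM (imeglimin) and 862 CPM (vehicle) at 11.1 mM, and at 263 CPM (imeglimin) and 549 CPM (vehicle) at 3.9 mM, an interaction of 1.12. Eno1 (1.10) and Pgk1 (1.07) were close to it. Ldha, the lactate dehydrogenase subunit that beta cells normally keep low, was at 97.2 CPM (imeglimin) and 36.8 CPM (vehicle) at 11.1 mM, and at 1.66 CPM (imeglimin) and 4.04 CPM (vehicle) at 3.9 mM. The levels at 3.9 mM rested on 85 UMIs with imeglimin and 311 UMIs with vehicle. Its interaction was 2.68 (2.33 to 3.03), or 1.74 with the mean of per-cell CPM. Its level was up to 40.3 times higher in cells under every hormone limit, and a part of free RNA from those cells was not tested.

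Genes of the hypoxia response overlapped with glycolysis and had a median of 0.40 over 15 genes, 14 of them above the median of all genes. Bnip3, a mitochondrial autophagy receptor, was at 481 CPM (imeglimin) and 361 CPM (vehicle) at 11.1 mM, and at 73.9 CPM (imeglimin) and 132 CPM (vehicle) at 3.9 mM, an interaction of 1.25. Ero1l and Ldha were the other 2-fold members. Targets of ChREBP, the carbohydrate-response transcription factor, had a median of 0.03 over 8 genes with the extremes on both sides. The desaturase gene Scd2 was at 172 CPM (imeglimin) and 149 CPM (vehicle) at 11.1 mM, and at 20.03 CPM (imeglimin) and 46.1 CPM (vehicle) at 3.9 mM, an interaction of 1.41. Txnip (chr3:96557957-96561883, plus strand), a thioredoxin-binding protein that is strongly glucose-induced in beta cells, was the clearest gene with the reverse crossing. It was at 21.2 CPM (imeglimin) and 59.9 CPM (vehicle) at 11.1 mM, and at 31.2 CPM (imeglimin) and 9.96 CPM (vehicle) at 3.9 mM. The interaction was -3.15 (-3.30 to -3.00), and the level was up to 10.1 times higher in cells under every hormone limit. Cholesterol synthesis genes had a median of -0.08 over 11 genes, none past 2-fold.

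**Figure D4:**
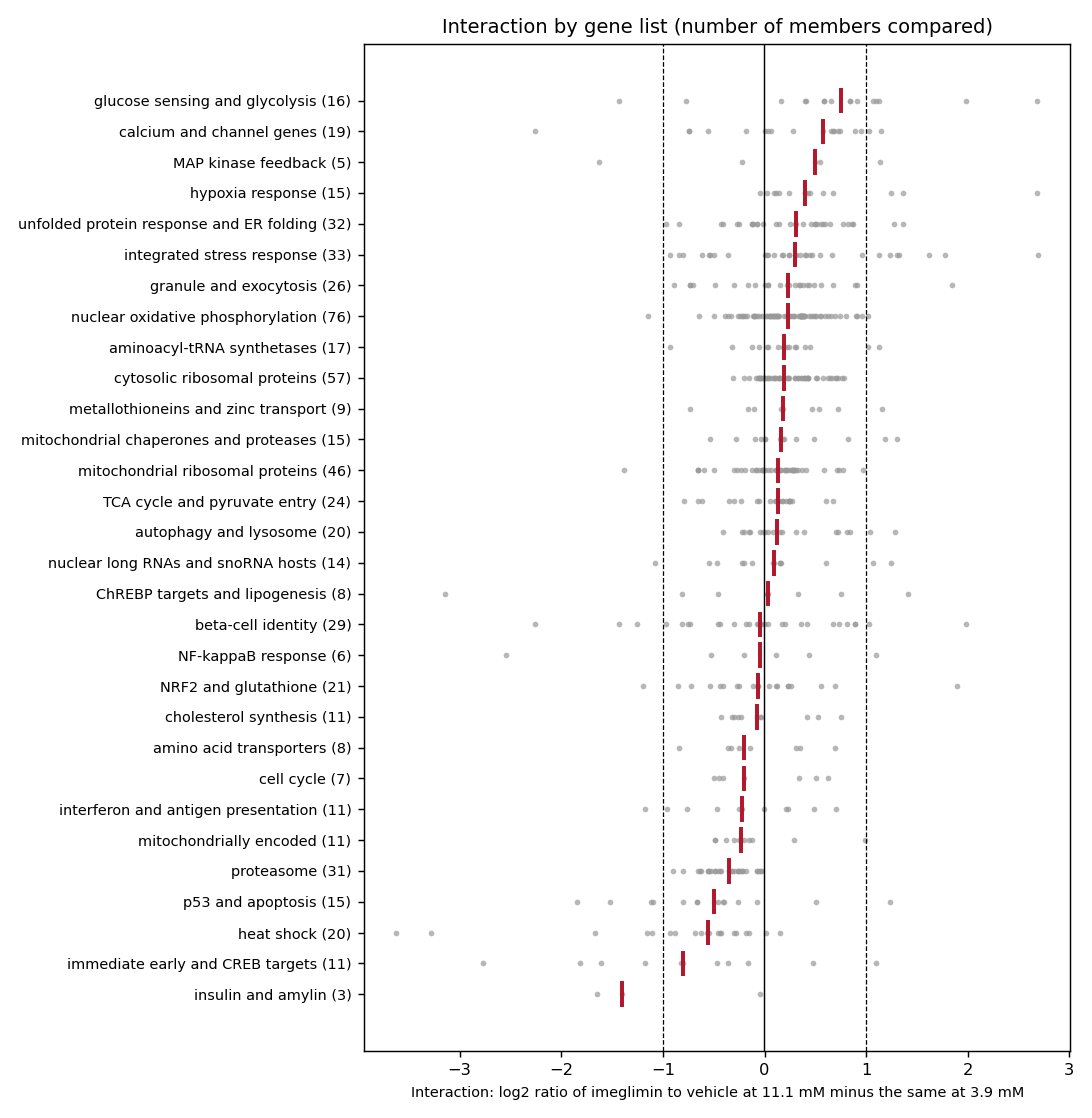
Interaction (log2) of each compared member of the 30 gene lists, as grey points, with the list's median as a red bar, the number of members in brackets, and dashed lines at a 2-fold difference between the ratios. Glycolysis is at the top with a median of 0.75, the heat shock median is -0.56, all 31 proteasome genes lie below 0, and the insulin genes are at the bottom.

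Heat shock genes lay on the negative side, with a median of -0.56 over 20 genes, 0 at least 2-fold higher and 5 lower, and 18 below the median of all genes. The inducible HSP70 genes Hspa1b and Hspa1a led, but through few cells. Hspa1b was at 11.7 CPM (imeglimin) and 117 CPM (vehicle) at 11.1 mM, and at 55.4 CPM (imeglimin) and 45.0 CPM (vehicle) at 3.9 mM, an interaction of -3.62. In vehicle at 11.1 mM, 85.0% of its UMIs came from 1% of the insulin cells, against 69.7% in imeglimin at 11.1 mM, 30.4% in imeglimin at 3.9 mM and 15.4% in vehicle at 3.9 mM. Without the cells in which the Hspa1a and Hspa1b genes took at least 0.1% of UMIs, 99 cells in that vehicle library and 40 to 50 in the others, the interactions were -0.21 for Hspa1b and -0.20 for Hspa1a, against -3.28 for Hspa1a in all insulin cells. The Hspa1a and Hspa1b genes are near-identical neighbours, so the split of UMIs between them is uncertain.

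Outside these genes the high library was another: 17 of the 20 listed genes had their highest level in imeglimin at 3.9 mM, against 42.5% of all compared genes. The HSP40 gene Dnajb1 was at 38.9 CPM (imeglimin) and 38.1 CPM (vehicle) at 11.1 mM, and at 171 CPM (imeglimin) and 52.3 CPM (vehicle) at 3.9 mM, with an interaction of -1.67, or -1.16 without the same cells. Hsph1, an HSP110 exchange factor, was at 108 CPM (imeglimin) and 122 CPM (vehicle) at 11.1 mM, and at 277 CPM (imeglimin) and 141 CPM (vehicle) at 3.9 mM, with an interaction of -1.16, or -0.72 without them. Hsp90aa1 was the remaining 2-fold member (-1.10). Ubb, a polyubiquitin gene, was at 1612 CPM (imeglimin) and 2032 CPM (vehicle) at 11.1 mM, and at 4749.7 CPM (imeglimin) and 1911 CPM (vehicle) at 3.9 mM, an interaction of -1.65. All 31 proteasome subunit genes lay below the median of all genes, with a list median of -0.35 and a range of -0.90 (Psmd12) to -0.03 (Psmc5), and none reached 2-fold. Their highest level was in imeglimin at 3.9 mM in 26 of 31, against 42.5% of all compared genes. With plain CPM the proteasome median was -0.03, against a median of all genes of 0.32.

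The Hspa1b promoter (chr17:34959189-34959488, minus strand) and the Hsph1 promoter (chr5:149636287-149636586, minus strand) are shown, in the same format, for the core of the heat shock element. The match to GAANNTTC, whose letters read the same on both strands, begins 104 bases before the start site of Hspa1b and 41 bases after that of Hsph1. The Hspa1a promoter has 296 of 300 bases identical to that of Hspa1b.
Hspa1b: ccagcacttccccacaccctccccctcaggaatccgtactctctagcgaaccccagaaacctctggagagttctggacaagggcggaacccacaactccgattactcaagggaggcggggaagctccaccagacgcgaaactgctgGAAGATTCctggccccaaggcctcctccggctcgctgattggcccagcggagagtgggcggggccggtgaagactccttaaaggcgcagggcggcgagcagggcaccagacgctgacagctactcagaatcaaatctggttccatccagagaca
Hsph1: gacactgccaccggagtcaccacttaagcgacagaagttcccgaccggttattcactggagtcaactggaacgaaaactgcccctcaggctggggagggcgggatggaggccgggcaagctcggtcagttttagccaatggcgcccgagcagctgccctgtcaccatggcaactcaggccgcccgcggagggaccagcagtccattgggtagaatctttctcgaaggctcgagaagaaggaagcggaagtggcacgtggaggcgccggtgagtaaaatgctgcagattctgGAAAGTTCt
This core was found in 7.86% of all promoters. Counted by gene as above, it was in 6.32% of compared genes with a promoter to search and in 9 of 17 on the heat shock list (52.9%). In the groups by interaction it was in 10 of 140 searched genes with a 2-fold higher interaction (7.14%) and in 8 of 83 with a 2-fold lower one (9.64%). The ATF4 motif was in 0 of 17 searched heat shock genes, and the heat shock core in 1 of 27 on the integrated stress response list.

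Immediate early genes, which respond within minutes to calcium, growth factors or tissue handling, had a median of -0.80 over 11 genes, with 1 gene 2-fold higher and 4 lower. Jun was at 58.2 CPM (imeglimin) and 54.1 CPM (vehicle) at 11.1 mM, and at 244 CPM (imeglimin) and 33.2 CPM (vehicle) at 3.9 mM. Imeglimin at 3.9 mM was the only high library, and the interaction was -2.77. Junb (-1.81), Klf6 (-1.61) and Btg1 (-1.17) were lower as well. Nfkbia, the NF-kappaB inhibitor and target gene, was at 55.3 CPM (imeglimin) and 69.8 CPM (vehicle) at 11.1 mM, and at 379.9 CPM (imeglimin) and 82.4 CPM (vehicle) at 3.9 mM, an interaction of -2.54. Ier3, on both lists, was at 1.09, and the NF-kappaB list had a median of -0.04 over 6 genes. Jun, Junb, Klf6, Nfkbia and Ier3 were each over 10 times higher in cells under every hormone limit, and the part of free RNA from those cells was not tested.

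Genes of p53 and apoptosis had a median of -0.49 over 15 genes, with 1 gene 2-fold higher (Sesn2) and 4 lower. The lower ones were the growth arrest genes Gadd45b (-1.85), Gadd45g (-1.12) and Gadd45a (-1.09) and Phlda3 (-1.52), of which Gadd45b and Phlda3 were over 20 times higher in cells under every hormone limit. Feedback genes of MAP kinase signalling were few, with a median of 0.49 over 5 genes that turned to -0.37 when genes down to a mean of 5 CPM were compared. The phosphatase gene Dusp5 was at -1.63 and the G-protein regulator gene Rgs2 at 1.14. Trib1, a pseudokinase related to Trib3, was at 39.0 CPM (imeglimin) and 44.9 CPM (vehicle) at 11.1 mM, and at 34.4 CPM (imeglimin) and 8.62 CPM (vehicle) at 3.9 mM. Its interaction of -2.20 was opposite in sign to that of Trib3. Several other low interactions had imeglimin at 3.9 mM as the 1 high library: the spliceosome protein gene Snrnp48 was at 48.0 CPM (imeglimin) and 46.5 CPM (vehicle) at 11.1 mM, and at 202 CPM (imeglimin) and 56.0 CPM (vehicle) at 3.9 mM, with an interaction of -1.81. Vcl, which encodes vinculin (-1.66), and the phosphatase gene Dusp8 (-1.69) were alike in this. Oga, which removes O-GlcNAc from proteins, was highest in the same library (102 CPM) and lowest in vehicle at 3.9 mM (23.0 CPM), with an interaction of -1.82. Tent5a, a noncanonical poly(A) polymerase gene, had its lowest level there too, at 28.8 CPM against 151 to 289.6 CPM in the other libraries, and an interaction of -1.80. Akr1c19, an aldo-keto reductase gene, was low only in imeglimin at 11.1 mM, at 9.43 CPM against 35.7 to 45.4 CPM in the other libraries, and its interaction was -2.37.

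Genes of respiration and protein synthesis had small interactions. Nuclear-encoded oxidative phosphorylation genes had a median of 0.23 over 76 genes, 57 of them above the median of all genes. Ndufa3, a complex I subunit gene, was 2-fold higher (1.02), at 87.7 CPM (imeglimin) and 46.8 CPM (vehicle) at 11.1 mM, and at 54.7 CPM (imeglimin) and 59.2 CPM (vehicle) at 3.9 mM. The 11 compared mitochondrially encoded genes had a median of -0.23, with none past 2-fold. That sign turned with plain CPM, at 0.09, where the median of all genes was 0.32. Cytosolic ribosomal proteins had a median of 0.19 over 57 genes, none past 2-fold. In 54 of the 57 the lowest level was in vehicle at 11.1 mM, against 37.3% of all compared genes. The medians were 0.13 over 46 mitochondrial ribosomal proteins, with Mrpl1 lower (-1.39), and 0.13 over 24 genes of the TCA cycle and pyruvate entry, with none past 2-fold. Autophagy and lysosome genes had a median of 0.12 over 20 genes, with progranulin, Grn (1.28), and the hexosaminidase gene Hexa (1.03) 2-fold higher.

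In the last lists the medians were no farther than 0.22 from 0. Nuclear long RNAs and snoRNA hosts had a median of 0.09 over 14 genes, with Snhg6 (1.24) and the paraspeckle RNA Neat1 (1.07) higher and Snhg1 (-1.08) lower. With the mean of per-cell CPM the interaction of Neat1 was 0.40. Interferon and antigen presentation genes had a median of -0.22 over 11 genes, which was 0.10 with plain CPM, and the immunoproteasome subunit gene Psmb8 was its 2-fold member (-1.18). Amino acid transporters (-0.20 over 8 genes, 0.12 with plain CPM) and cell cycle genes (-0.20 over 7 genes, 0.12 with plain CPM) had no 2-fold member. With plain CPM the median of all genes was 0.32, above the plain CPM medians of these lists and of interferon and antigen presentation.

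The same quantity was computed in glucagon cells, which share each library with the insulin cells. Glucagon cells had at least 2% of their UMIs from Gcg and under 1% from each of Sst and Ppy. They had under 4% from Ins1 and Ins2, so the same insulin limit bounded them from above. They numbered 778 (imeglimin) and 552 (vehicle) at 11.1 mM, and 1112 (imeglimin) and 647 (vehicle) at 3.9 mM. Among 6264 compared genes, 22 (0.351%) passed 2-fold upward and 28 (0.447%) downward, and the median counting interval was 0.71 wide. Of the 162 genes 2-fold higher in insulin cells that could be compared there, 100 had a positive value, 3 reached 2-fold, and their median was 0.10. Of the 87 lower ones, 60 had a negative value, 8 reached 2-fold, and their median was -0.20. These genes were picked on their insulin-cell values, so smaller values in glucagon cells follow in part from that choice. The difference between the cell types was not tested.

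Insulin RNA in the glucagon cells differed between the libraries: Ins2 was at 2568 CPM (imeglimin) and 2817 CPM (vehicle) at 11.1 mM, and at 9055 CPM (imeglimin) and 6249 CPM (vehicle) at 3.9 mM. The part of RNA from insulin cells in the glucagon-cell values, and so in any shared sign, was not tested. Nupr1 was at 26.8 CPM (imeglimin) and 13.8 CPM (vehicle) at 11.1 mM, and at 264 CPM (imeglimin) and 308 CPM (vehicle) at 3.9 mM in glucagon cells, with an interaction of 1.18 (0.70 to 1.66). Mt1 was at 4186 CPM (imeglimin) and 548 CPM (vehicle) at 11.1 mM, and at 7277 CPM (imeglimin) and 2155 CPM (vehicle) at 3.9 mM there. Its interaction of 1.18 (1.11 to 1.25) was beside 1.16 in insulin cells, and Mt2 was at 1.14. Hspa1b (-3.20), Hspa1a (-3.83) and Hmox1 (-2.77) were negative, and Hspa1a was again high in vehicle at 11.1 mM, at 83.5 CPM against 5.95 to 9.70 CPM in the other libraries. Tenm4 (-1.36), Igf1r (-0.34), Sesn2 (-0.68), Txnip (0.45) and Gadd45g (0.92) had the opposite sign in glucagon cells. Jun was at -0.48 and Nfkbia at -0.15, much nearer 0 than in insulin cells. The integrated stress response list, at 0.30 in insulin cells, had a median of -0.41 over 30 genes in glucagon cells, while glycolysis (0.50) and the hypoxia response (0.62) were positive in both.

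**Figure D5:**
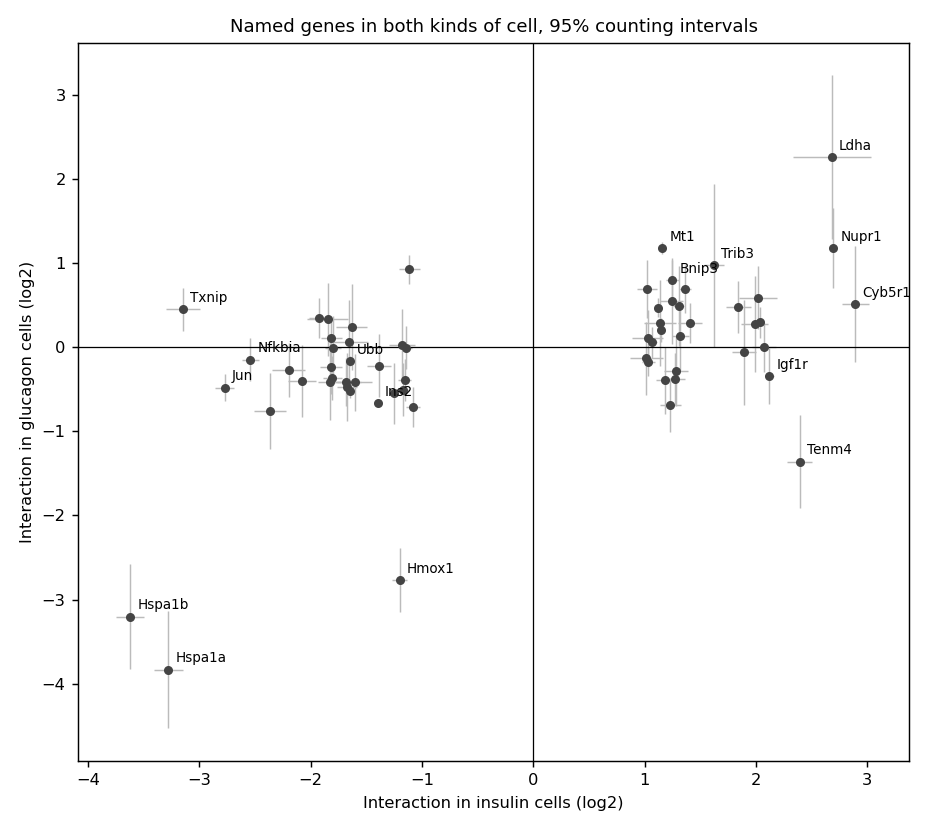
Interaction (log2) in glucagon cells (vertical axis) against that in insulin cells (horizontal axis) for the 63 named genes at least 2-fold in insulin cells and compared in both, with 95% counting intervals as grey lines. Points share their libraries. The same sign in both is held by 45 of 63, and 60 of 63 lie nearer 0 in glucagon cells. The genes were picked for a large interaction in insulin cells, so lying nearer 0 in glucagon cells follows in part from that choice.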

How the data were processed

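UMI counts per gene and barcode from 4 single-cell libraries were used as deposited; per the submitters' processing notes they were made with Cell Ranger 6.0.2 on mm10, and the gene annotation and cell calling are not given in the sources used here. Of 32285 gene IDs, 32158 (99.6%) were found in GENCODE vM21, which gave the positions of genes on GRCm38. Where a symbol had more than 1 ID (Ddit3 and Aldoa), the ID with most UMIs was taken.

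Counts were summed over the insulin cells of each library and scaled to CPM with TMM factors (edgeR 4.0.16 in R 4.3.3; factors 0.907 and 0.912 for imeglimin and vehicle at 11.1 mM, 0.981 and 1.23 for imeglimin and vehicle at 3.9 mM). Python 3.11.15 with pandas 2.3.3 did the rest. Genes with a mean of at least 20 CPM were compared; a sum of 0 would have been set to a floor of 3 UMIs. Intervals (95%, from the 4 UMI counts) cover counting error only. No doublet caller was run; an alternative left out the 5% of insulin cells with most UMIs. The calculation was tested on simulated Poisson counts with known changes in some genes. All simulated libraries shared the same gene profile otherwise, with no difference in insulin share, exocrine RNA or choice of cells. The simulation therefore bears on the arithmetic only. No test or p-value was possible with 1 library per condition.

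Genes were named where they had the 15 highest or 15 lowest interactions with the same sign under 4 alternatives, leaving out unnamed models and genes over 10 times higher in another group of at least 50 cells of a library; where they were up to 4 extreme members past 2-fold of a list, genes of interest, or up to 10 genes with opposite ratios. Further list members were named after their values were seen. The members and lists were chosen with earlier results of these data known. Some genes are not reported here.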

Additional observations from a re-analysis of the deposited data

Results flagged for a closer look

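Of the 31 genes whose imeglimin-to-vehicle ratio was at least 1.5-fold on one side at 11.1 mM and at least 1.5-fold on the other side at 3.9 mM, the 10 with the largest interactions are given here. With 1 library per condition the difference was not tested for any of them. Imeglimin was above vehicle at 11.1 mM and below it at 3.9 mM for Cyb5r1 (interaction 2.89), Nupr1 (2.69), Ldha (2.68), Tenm4 (2.39), Fam129a (2.31), Igf1r (2.12), Naaa (2.09), Hap1 (2.07) and Chchd10 (2.04). For Txnip (-3.15) imeglimin was below vehicle at 11.1 mM and above it at 3.9 mM. Ldha and Txnip were over 10 times higher in other cells of a library.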

How the results depend on the processing

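The counts of 2-fold genes (184 higher, 102 lower) followed the filter and the scaling. Plain CPM gave 525 and 45, a minimum mean of 5 CPM 438 and 245, no filter 2219 and 4140, a minimum of 50 CPM 98 and 51, and a 1.5-fold limit 716 and 501; the mean of per-cell CPM gave 157 lower genes. Genes with opposite ratios (25 above vehicle at 11.1 mM and below it at 3.9 mM, 6 the other way) numbered 39 and 2 with plain CPM, 45 and 18 from 5 CPM, 464 and 1896 with no filter, and 13 and 2 from 50 CPM; without hormone and mitochondrial genes in the scaling the second count was 10. Some list medians changed sign. With plain CPM, which added 0.32 to every interaction, they were mitochondrially encoded (0.086), interferon (0.10), amino acid transporters (0.12) and cell cycle (0.12). With the mean of per-cell CPM it was cell cycle (0.022). From 50 CPM they were TCA cycle (-0.0027) and interferon (0.23). MAP kinase feedback changed sign from 5 CPM (-0.37) and with no filter (-0.061). For genes named for the highest or lowest interactions, an unchanged sign under 4 alternatives was a condition of naming, so their stable sign there was partly chosen. All 184 higher and all 102 lower genes met that condition. Of 76 named genes past 2-fold, 0 changed sign under 11 alternatives and 57 stayed past 2-fold in each. Among those that did not in at least 1 alternative were Btg1, Ern1, Gadd45g, Hexa, Hmox1, Hsph1, Ier3, Kcnj11, Ndufa3, Neat1, Nkx6-1, Psmb8, Rgs2, Snhg1, Snhg6 and Vars. Hspa1b ended at -0.21 and Hspa1a at -0.20 without the cells high in their UMIs. Ttyh1 was at 1.61 with the mean of per-cell CPM and Lcn2 at 2.72 in cells thinned to 3000 UMIs. The cause of the other shifts was not tested. No paired analysis was possible because each condition has 1 library.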
